A study of Mus musculus with 6 samples.

Results

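The 45 genes described here act in the G2 phase and in mitosis, and were chosen by name as mitotic cyclins, kinases, spindle, centromere and cytokinesis genes. All 45 were found among the 24421 gene rows of the count table, and all 45 passed the filter on low counts that left 13736 genes to test. RNA was sequenced from isolated islets of the mouse pancreas, small endocrine organs in which β cells make insulin. Of 6 libraries, 3 were labelled control and 3 were labelled as a knockout in β cells, with the genotype C57.DhpsloxP.MIP1-CreERT, all on a C57BL/6J strain background. The knockout label joins a loxP-flanked Dhps allele to CreERT, a tamoxifen-inducible recombinase, under MIP1, an insulin promoter that limits recombination to insulin-expressing cells. The labels did not give the age of the mice, the treatment, whether the controls carried Cre or a loxP allele, the meaning of the prefix HF in the sample names, or whether replicates came from separate animals. The p-values therefore measure only the spread between these libraries, which may be technical. By its title, the series asks how making hypusine and polyamines bears on facultative growth of the β cell pool. Dhps encodes deoxyhypusine synthase, which carries out the first step in converting a lysine of eIF5A, a translation factor, to hypusine.

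Cells that leave DNA replication build up cyclins A and B with the kinase CDK1, which drives entry into mitosis. Condensin and topoisomerase then compact the chromosomes, kinetochores attach them to the spindle, and the anaphase-promoting complex destroys cyclin B so that the chromosomes part and the cell divides. Most of these transcripts are made only in dividing cells, through repression by the DREAM complex in resting cells and activation by MYB-MuvB, FOXM1 and NF-Y in cycling cells. Adult β cells divide rarely, so in islets these transcripts are scarce.

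Beyond their function, the genes shared promoter sequence. Many G2/M promoters carry a cell cycle genes homology region (CHR), the element that MuvB complexes bind, and CCAAT boxes, which NF-Y binds. RefSeq promoter windows of 300 bases on GRCm38.p6, running from 250 bases before the gene start to 50 bases after it, were matched for 38 of the 45 genes and gave 40 windows. The CHR form TTTGAA, searched on both strands, was found in 31 of the 40 windows (77.5%), against 17.9% of all 32851 promoter windows and 11.7% of the 13411 windows of tested genes. CCAAT, searched on both strands, was found in 32 of 40 windows (80%), against 37.4% of all windows and 36.9% of those of tested genes. At least 2 CCAAT boxes were present in 55% of these windows and in 11.7% of all windows. TTTGAA and CCAAT occurred together in 28 windows (70%), against 6.95% of all windows. The rarer CHR form TTCGAA, which reads the same on both strands, was present in 3 windows (7.5%), against 1.56% of all windows. There was 1 overlap between matches of different motifs. A match describes the letters of the window and shows no binding.

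Promoters of 5 genes that rose in the knockout-labelled libraries are shown because they carry these arrangements, or, in Birc5, neither motif. Each is the 150 bases before the RefSeq gene start, written 5′ to 3′ along the gene, with matches of the 3 motifs on either strand in capitals.
Ccnb2 promoter, chr9:70421555-70421704, - strand: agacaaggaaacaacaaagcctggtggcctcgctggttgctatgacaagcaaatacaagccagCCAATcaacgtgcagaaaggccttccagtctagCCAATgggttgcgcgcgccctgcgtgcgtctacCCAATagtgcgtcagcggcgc
Cdk1 promoter, chr10:69352913-69353062, - strand: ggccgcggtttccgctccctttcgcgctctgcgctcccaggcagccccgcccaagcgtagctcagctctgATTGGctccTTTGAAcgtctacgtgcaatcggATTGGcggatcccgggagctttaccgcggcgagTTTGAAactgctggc
Cdc20 promoter, chr4:118437344-118437493, - strand: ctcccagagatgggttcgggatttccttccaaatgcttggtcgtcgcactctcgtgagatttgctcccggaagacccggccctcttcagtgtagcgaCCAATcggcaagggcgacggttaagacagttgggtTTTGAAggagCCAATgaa
Plk1 promoter, chr7:122159285-122159434, + strand: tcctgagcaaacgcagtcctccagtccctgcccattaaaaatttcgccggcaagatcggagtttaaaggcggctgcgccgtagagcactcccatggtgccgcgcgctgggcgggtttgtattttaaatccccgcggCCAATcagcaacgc
Birc5 promoter, chr11:117849087-117849236, + strand: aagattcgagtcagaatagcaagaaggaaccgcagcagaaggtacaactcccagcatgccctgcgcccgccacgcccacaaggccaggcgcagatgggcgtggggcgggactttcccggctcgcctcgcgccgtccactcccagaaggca
In Ccnb2, which encodes cyclin B2, the 3 CCAAT boxes begin at bases -87, -54 and -21 from the start, spaced 33 bases apart. Outside the printed stretch, a TTTGAA begins at base -167 and another at base 5 after the start. In Cdk1, which encodes the mitotic kinase, the printed stretch holds 2 CCAAT boxes on the opposite strand, 32 bases apart, and 2 TTTGAA elements, of which the nearer begins at base -15. Cdc20 has its TTTGAA at base -18 between 2 CCAAT boxes 45 bases apart. Plk1 has a single CCAAT box at base -14 and a TTTGAA at base 31 after the start. No motif was found in the windows of 5 of the 38 genes, 3 of which rose (Birc5, Mad2l1 and Ncaph). That says only that these letters are not in these windows.

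**Figure D1:**
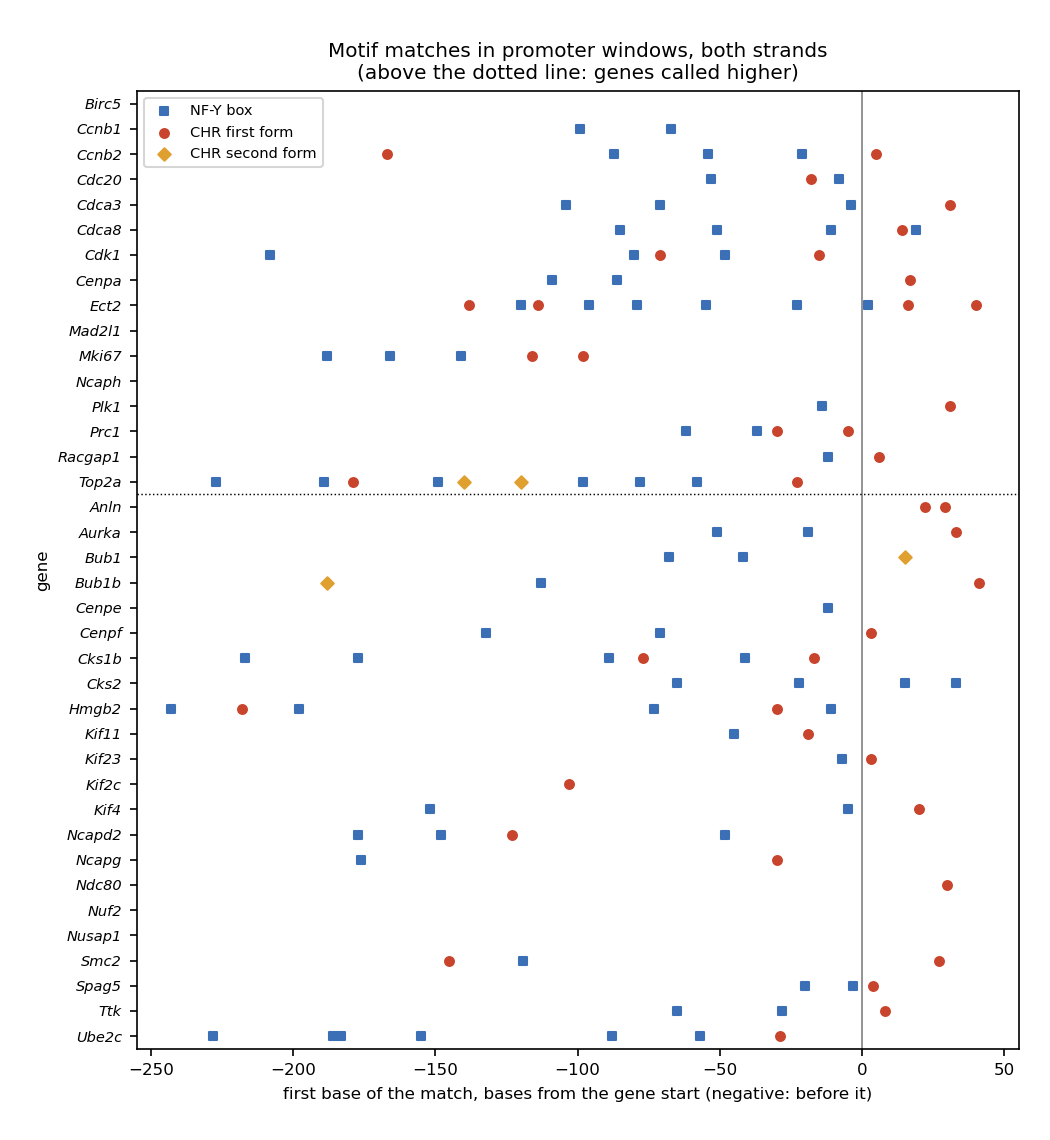
First base of each motif match (x axis, in bases from the gene start, negative before it) in the RefSeq promoter windows of 38 genes (y axis), with squares for the CCAAT box bound by NF-Y and other symbols for the 2 CHR forms. Genes with 2 windows have both drawn on 1 line; CCAAT matches lie mostly within 100 bases before the start (48 of 77), and CHR matches of the first form begin at a median of base -15.

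By the test given below, some of these genes rose and others were not called. TTTGAA was in 77.8% of 18 windows of genes that rose and 77.3% of 22 windows of the others. CCAAT was in 83.3% and 77.3% of them, both motifs together in 77.8% and 63.6%, and at least 2 CCAAT boxes in 61.1% and 50%. These differences were not tested. The 18 windows came from 16 genes, because Ect2 and Prc1 gave 2 windows each, all with both motifs. Aurkb and Ccna2, which also rose, had no window.

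The libraries held 21027737 to 23249895 counts over genes, and the labels were checked with the targeted gene. Dhps had 260, 321 and 312 counts in controls 1, 2 and 3 and 266, 271 and 225 in knockout-labelled replicates 1, 2 and 3. The log2 fold change was -0.07 ± 0.12 (SE, edgeR adjusted p = 0.742; exact two-sided permutation p = 0.4, where 0.1 is the smallest that 3 against 3 libraries allow). These counts sum all 9 exons of a gene model whose exons overlap Wdr83 by 127 bp and come from all islet cells. They do not separate the groups, so directions below refer to libraries by their labels. The 11 β cell markers were present in every library, with a summed level of 367390 to 496203 CPM (counts per 1000000, with TMM-scaled library sizes) in controls and 393794 to 448428 CPM in knockout-labelled libraries. Ins1, Ins2 and Iapp made up most of that sum. Of the 11 markers, 5 fell (Ucn3, Nkx6-1, Slc2a2, Glp1r and Slc30a8) and 0 rose, with a median log2 fold change of -0.65. Among all tested genes, 2.63% fell. For 6 of the 11 every knockout-labelled library lay below every control, which held for 15.2% of tested genes.

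The mitotic genes were higher in the islets labelled knockout. Of the 45 genes, 18 rose, 0 fell and 27 were not called by edgeR (quasi-likelihood test, Benjamini-Hochberg adjusted over all tested genes). Among all 13736 tested genes, 4.14% rose and 2.63% fell. The log2 fold change was above 0 for all 45, from 0.09 to 2.49 with a median of 1.69, and the median over all tested genes was 0.01. In 34 of the 45, each knockout-labelled library lay above each control, which held for 16.9% of tested genes, and in 0 did each lie below, which held for 15.2%. An unadjusted p under 0.05 with a higher level was reached by 38 of 45, against 14.9% of tested genes. The genes vary together across libraries, so these counts are not independent of each other. They include 19 genes whose passing of the filter depended on the group, as given below. In bulk RNA, more dividing cells and more RNA per dividing cell cannot be told apart, and the counts do not show which islet cells carried these transcripts.

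The transcripts were scarce. Summed over the 45 genes, controls 1, 2 and 3 held 156, 79.3 and 99.6 CPM, and knockout-labelled replicates 1, 2 and 3 held 247, 247 and 224 CPM. The group means of this sum were 112 ± 39.6 and 239 ± 13.1 CPM (SD, n = 3 each), a ratio of 2.15. The median gene had 49, 17 and 21 counts in controls against 94, 79 and 78 in knockout-labelled islets. Of the 45, 35 lay in the lowest of 4 equal groups of tested genes by mean level and 0 in the highest. Because 19 of the 45 reached the filter's level of 0.438 CPM in all 3 knockout-labelled libraries but not in all 3 controls, passing the filter depended on the group for those genes.

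**Figure D2:**
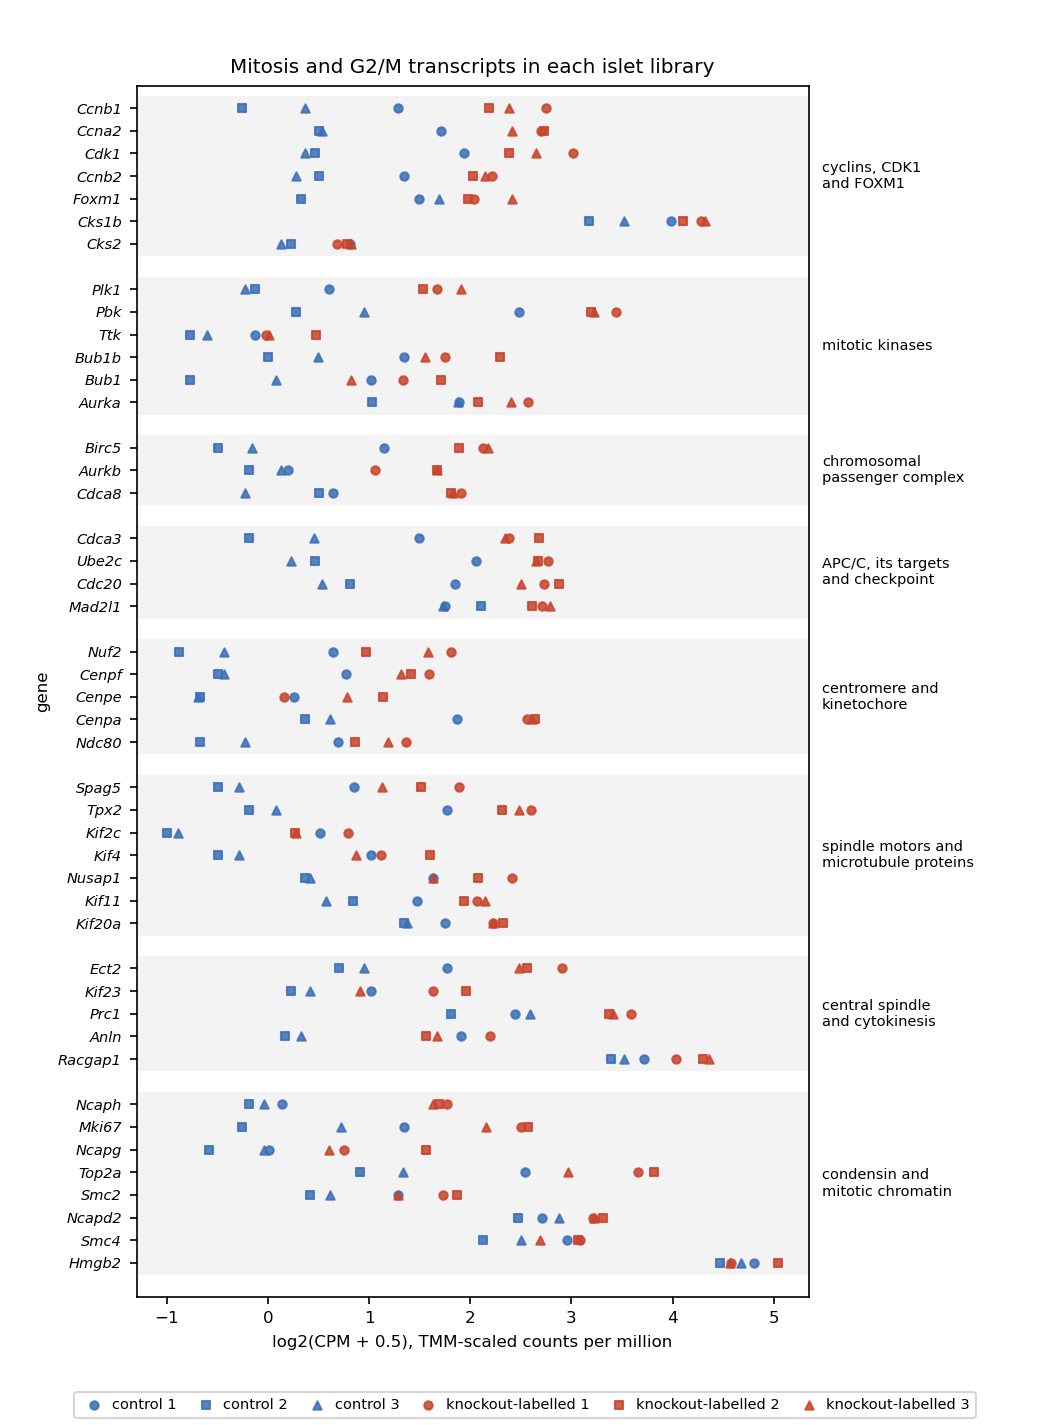
Level of each of the 45 genes (y axis, grouped by role) in every library (x axis, log2 of CPM plus 0.5), with blue for controls, red for knockout-labelled libraries and the symbol for the replicate number. Red points lie to the right of blue points for 34 genes, and the circles of control 1 lie to the right of the other controls for most genes.

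Of 7 genes for cyclins, CDK1, FOXM1 and the Cks subunits, 4 rose, namely Ccna2, Ccnb1, Ccnb2 and Cdk1. Cyclin B1, the activator of CDK1 at mitotic entry (Ccnb1, chr13:100778739-100786486 in mm10), had 42, 8 and 20 counts in controls against 141, 86 and 93 in knockout-labelled islets. Every knockout-labelled library exceeded every control. The level rose from 1.02 ± 0.830 to 4.99 ± 1.11 CPM (SD, n = 3 each), a log2 fold change of 2.30 ± 0.49 (SE, edgeR adjusted p = 0.0304). Cyclin A2 (Ccna2), which acts in S phase and early mitosis, had 60, 22 and 24 counts against 136, 130 and 95. It rose by 1.88 ± 0.40 on the log2 scale (edgeR adjusted p = 0.0304), and its exons overlap 378 bp of Exosc9, which had a mean of 297 counts. Cyclin B2 (Ccnb2) had 44, 22 and 18 counts against 94, 76 and 77 and rose by 1.67 ± 0.39. Cdk1 had 72, 21 and 20 counts against 173, 100 and 114 and lay just inside the threshold (1.88 ± 0.49, edgeR adjusted p = 0.0494). In all 4 genes control 1 was the highest control, and still below each knockout-labelled library.

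Foxm1, the transcription factor that activates many of the other genes, was not called. It had 50, 18 and 69 counts in controls against 82, 73 and 95 in knockout-labelled islets (log2 fold change 1.03 ± 0.41, edgeR adjusted p = 0.149). The groups did not overlap for Foxm1, with 1.93 ± 1.04 CPM in controls and 3.95 ± 0.759 CPM in knockout-labelled libraries (SD, n = 3 each). Cks1b and Cks2 encode small paralogous subunits that bind cyclin-dependent kinases. Cks1b, the most abundant of the 45 per length at 15.3 CPM per kb of exon in controls and 24.3 in knockout-labelled libraries, had 331, 204 and 277 counts against 432, 355 and 385 (0.67 ± 0.19, edgeR adjusted p = 0.0632). Cks2 had 27, 16 and 15 counts against 25, 26 and 25, with overlapping groups (0.52 ± 0.42, edgeR adjusted p = 0.458). Neither paralog was called, and reads that fit both could not be assigned with certainty.

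Of 6 mitotic kinases outside the passenger complex, only Plk1 was called under the fit to all 6 libraries. Plk1, polo-like kinase 1, which acts in centrosome maturation, chromosome segregation and cytokinesis, had 22, 10 and 9 counts in controls against 61, 51 and 64 in knockout-labelled islets. It rose from 0.597 ± 0.366 to 2.78 ± 0.434 CPM, a log2 fold change of 2.23 ± 0.44 (edgeR adjusted p = 0.0254). Pbk, a kinase of mitotic cells, had 110, 17 and 36 counts against 236, 184 and 174 and lay just outside the threshold (1.97 ± 0.52, edgeR adjusted p = 0.0514). For Pbk control 1 held more counts than controls 2 and 3 together. Aurka, the centrosomal Aurora kinase, had 69, 37 and 80 counts against 124, 79 and 94 (0.82 ± 0.31, edgeR adjusted p = 0.129). The spindle checkpoint kinases Bub1, Bub1b and Ttk had log2 fold changes of 1.5 to 1.52, with 2 counts in control 2 for Bub1 and for Ttk, and none was called.

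The 3 genes of the chromosomal passenger complex among the 45 rose. This complex corrects faulty chromosome attachments and then moves to the cleavage site. Its scaffold subunit Incenp, tested with the other mitotic genes, was not called (0.69 ± 0.26, edgeR adjusted p = 0.121). Aurkb, its Aurora kinase, had 14, 9 and 15 counts in controls against 36, 57 and 53 in knockout-labelled islets. It rose from 0.539 ± 0.144 to 2.32 ± 0.636 CPM, a log2 fold change of 2.09 ± 0.40 (edgeR adjusted p = 0.0237). Cdca8, which encodes borealin, had 23, 22 and 9 counts against 74, 64 and 60 (2.0 ± 0.41, edgeR adjusted p = 0.0278). Birc5, which encodes survivin, had 37, 5 and 10 counts against 88, 68 and 79 and lay just inside the threshold (2.28 ± 0.59, edgeR adjusted p = 0.0495). For Aurkb, Cdca8 and Birc5 the groups were apart.

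The anaphase-promoting complex and spindle checkpoint group held 3 genes that rose among 4. Cdc20, the activator of the complex in mitosis, had 67, 30 and 24 counts in controls against 139, 146 and 102 in knockout-labelled islets. It rose from 1.77 ± 1.17 to 6.05 ± 0.842 CPM (log2 fold change 1.79 ± 0.39, edgeR adjusted p = 0.0324), and its exons overlap 52 bp of Elovl1, with a mean of 541 counts. Mad2l1, the checkpoint protein that restrains Cdc20, differed from most of the others in its controls: control 2 was the highest, with 62, 91 and 71 counts against 137, 119 and 126. It rose by 0.93 ± 0.21 (edgeR adjusted p = 0.0346). Cdca3, a regulator of mitotic entry, rose by 2.11 ± 0.50, from 50, 9 and 22 counts to 107, 126 and 90. Ube2c, the ubiquitin-conjugating enzyme of the complex, had 79, 21 and 17 counts against 143, 125 and 114 and was not called (1.81 ± 0.51, edgeR adjusted p = 0.0618).

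Of 5 centromere and kinetochore genes, Cenpa was called. Cenpa encodes the histone H3 variant that marks centromeres, and had 68, 19 and 26 counts in controls against 123, 122 and 110 in knockout-labelled islets. It rose from 1.66 ± 1.30 to 5.58 ± 0.161 CPM (log2 fold change 1.77 ± 0.44, edgeR adjusted p = 0.0438). The 3 knockout-labelled libraries were close together, while control 1 stood above the other controls. Ndc80 and Nuf2, partners in the complex that holds microtubules, had log2 fold changes of 1.71 ± 0.62 and 2.39 ± 0.73 and did not pass. Nuf2 had 23, 1 and 6 counts in controls against 68, 31 and 49 in knockout-labelled islets. Cenpf (2.03 ± 0.60) and the kinesin Cenpe (1.93 ± 0.70) did not pass either, and for Cenpe control 1 with 15 counts exceeded knockout-labelled replicate 1 with 14.

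None of the 7 spindle motors and microtubule-associated proteins was called by edgeR with all 6 libraries, although their log2 fold changes ran from 0.88 to 2.01. At an unadjusted p under 0.05 there were 5 of 7, and DESeq2 and limma-voom each called 4. Kif11, the kinesin that pushes spindle poles apart, came nearest, with 49, 31 and 25 counts against 84, 71 and 77 (1.27 ± 0.34, edgeR adjusted p = 0.0526). Tpx2, an activator of Aurora A on the spindle, had 63, 9 and 14 counts against 126, 95 and 100 (2.0 ± 0.60, edgeR adjusted p = 0.0701). In both genes the groups did not overlap. The microtubule depolymerase Kif2c had 20, 0 and 1 counts against 28, 15 and 14, so that control 1 lay among the knockout-labelled libraries (1.5 ± 0.98, edgeR adjusted p = 0.361). Spag5 (2.01 ± 0.60), Kif4 (1.45 ± 0.65), Nusap1 (1.42 ± 0.47, overlapping Oip5) and Kif20a (0.88 ± 0.24) made up the rest. Kif20a shares 1115 bp of exon with Cdc23, which had a mean of 1089 counts against 72.8 for Kif20a, so its value is uncertain.

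Central spindle and cytokinesis genes gave 3 that rose among 5. Prc1, which bundles the microtubules between separating chromosomes, had 107, 72 and 140 counts in controls against 262, 210 and 199 in knockout-labelled islets. It rose from 4.50 ± 1.33 to 10.5 ± 0.898 CPM (log2 fold change 1.22 ± 0.22, edgeR adjusted p = 0.0206), and here control 3 was the highest control. Racgap1, the GTPase-activating subunit of centralspindlin, rose less, from 274, 239 and 277 counts to 361, 408 and 396 (0.72 ± 0.14, edgeR adjusted p = 0.0252). Ect2, the exchange factor that activates RhoA for cleavage, had 63, 27 and 36 counts against 159, 115 and 100 and rose by 1.69 ± 0.35. The centralspindlin kinesin Kif23 (1.29 ± 0.45) and the ring scaffold Anln (1.02 ± 0.57) were not called, and both had overlapping groups. Anln had 70 counts in control 1 against 52 and 53 in knockout-labelled replicates 2 and 3.

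The condensin subunits did not move alike. Condensin I joins the ATPases SMC2 and SMC4, which other condensins share, to the non-SMC subunits NCAPH, NCAPG and NCAPD2. Ncaph (chr2:127103810-127133954 in mm10) had 13, 9 and 12 counts in controls against 66, 58 and 51 in knockout-labelled islets. This was the largest log2 fold change of the 45, 2.49 ± 0.35, with an edgeR adjusted p of 0.0107, from 0.484 ± 0.114 to 2.74 ± 0.157 CPM. The spread within each group was small, and no control exceeded 13 counts. Ncapg had 11, 4 and 12 counts against 27, 52 and 20 (2.0 ± 0.54, edgeR adjusted p = 0.0546), and its exons overlap 770 bp of Lcorl, with a mean of 564 counts. Ncapd2 (0.60 ± 0.17), Smc2 (1.06 ± 0.40) and Smc4 (0.42 ± 0.24) were not called. Smc4 had 157, 93 and 131 counts against 181, 168 and 117, with overlapping groups. The differences between subunits were not tested.

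Of the other mitotic chromatin genes, Top2a and Mki67 rose. Top2a, the topoisomerase that untangles sister chromatids, had 115, 33 and 51 counts in controls against 275, 290 and 144 in knockout-labelled islets (log2 fold change 1.94 ± 0.43, edgeR adjusted p = 0.0331). Mki67, which encodes the Ki-67 antigen, had 44, 8 and 29 counts against 117, 116 and 78 (2.06 ± 0.48, edgeR adjusted p = 0.0363). For both genes every knockout-labelled library exceeded every control. Hmgb2, a chromatin protein also made in resting cells, had 594, 518 and 635 counts against 533, 691 and 457 (0.09 ± 0.15, edgeR adjusted p = 0.738). It was the second most abundant of the 45 per length, at 9.19 and 9.80 CPM per kb in the 2 groups, and its groups overlapped.

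**Figure D3:**
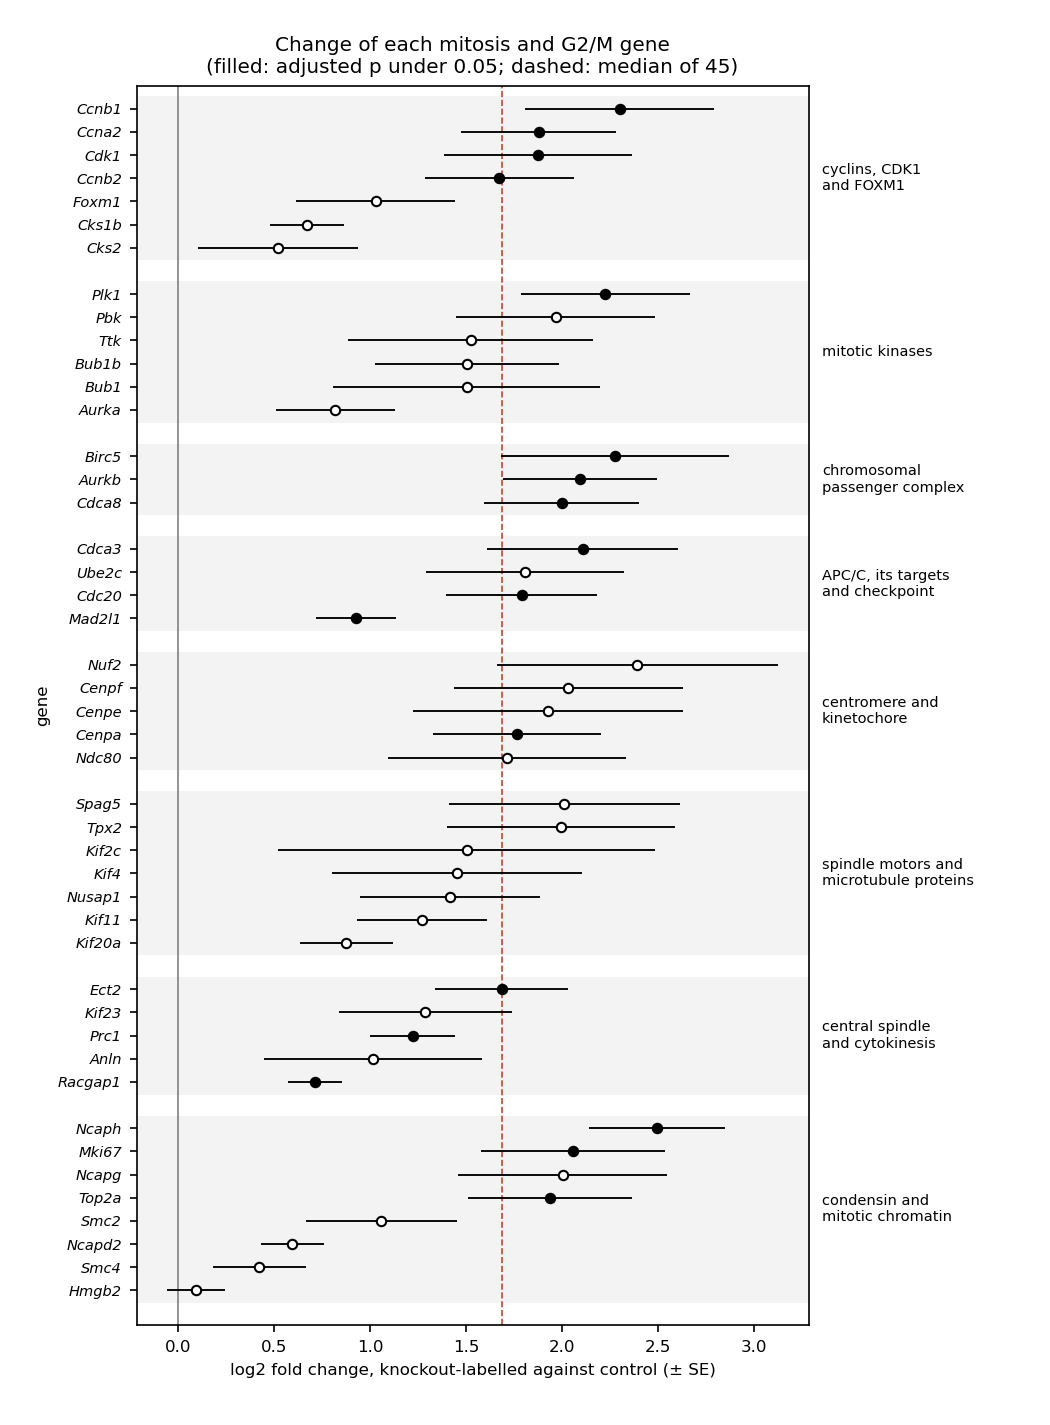
Log2 fold change of each of the 45 genes, knockout-labelled against control (x axis, points with SE bars), grouped by role (y axis). Filled points mark the 18 genes that passed an adjusted p of 0.05, the dashed line marks the median of 1.69, and no point lies below 0.

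The more abundant genes changed less on the log2 scale. Across the 45 genes, the log2 fold change and the mean level over all 6 libraries had a Spearman rho of -0.36 and a Pearson r of -0.47. The points come from the same libraries, so this is a description. Per kb of exon, the genes ran from 0.0400 to 15.3 CPM in the controls, with a median of 0.442, and from 0.150 to 24.3 CPM in the knockout-labelled libraries, with a median of 1.25. Cks1b and Hmgb2 ranked first and second in both groups.

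The controls differed among themselves in a shared order. Control 1 was the highest control for 41 of the 45 genes, against 4644 of 13736 tested genes, and control 2 was the lowest control for 35 of 45. Control 1 was also the highest control for 39 of 56 other mitotic genes, 23 of 36 replication genes, 14 of 14 acinar and 8 of 10 lymphocyte markers. It was so for only 2 of 13 myeloid, 1 of 11 endothelial and 1 of 10 stellate markers. The median of the 45 genes was 0.95 higher in control 1 than in controls 2 and 3 on the log2(CPM + 0.5) scale. There the median of all tested genes was -0.01 and that of the acinar markers 1.77. The knockout-labelled libraries had a weaker order: replicate 1 was highest of the 6 libraries for 19 genes, replicate 2 for 17 and replicate 3 for 9. Within that group, replicate 1 was lowest for 7 genes, replicate 2 for 18 and replicate 3 for 20. Measured against control 1 alone, the mean of the knockout-labelled libraries was still higher for 41 of 45 genes, with a median difference of 0.66. Against controls 2 and 3 the median difference was 1.62.

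The number of calls changed with the libraries fitted. Without control 1, 33 of the 45 genes were called higher (3.81% of tested genes), among them 17 of the 18 called with all libraries. Without control 2, Ncaph alone was called (0.622% of tested genes), and without control 3, Ncaph and Prc1 (1.24%). Without knockout-labelled replicate 1, edgeR called 0 of the 45 (0.402% of tested genes), with the smallest adjusted p at 0.0517 and 34 genes at an unadjusted p under 0.05. Without replicate 2 it called 7 (2.81%) and without replicate 3 it called 3 (1.87%). The median log2 fold change stayed between 1.40 and 2.32 in these 6 fits. At an unadjusted edgeR p under 0.05, 30 to 43 of the 45 were higher in them. Of the 13935 to 14009 genes tested in these fits, 2835 to 3760 reached that p in either direction. Each has 1 library fewer, so lost power and dependence on a library cannot be told apart. DESeq2 on all libraries called 28 of the 45 (5.28% of tested genes).

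**Figure D4:**
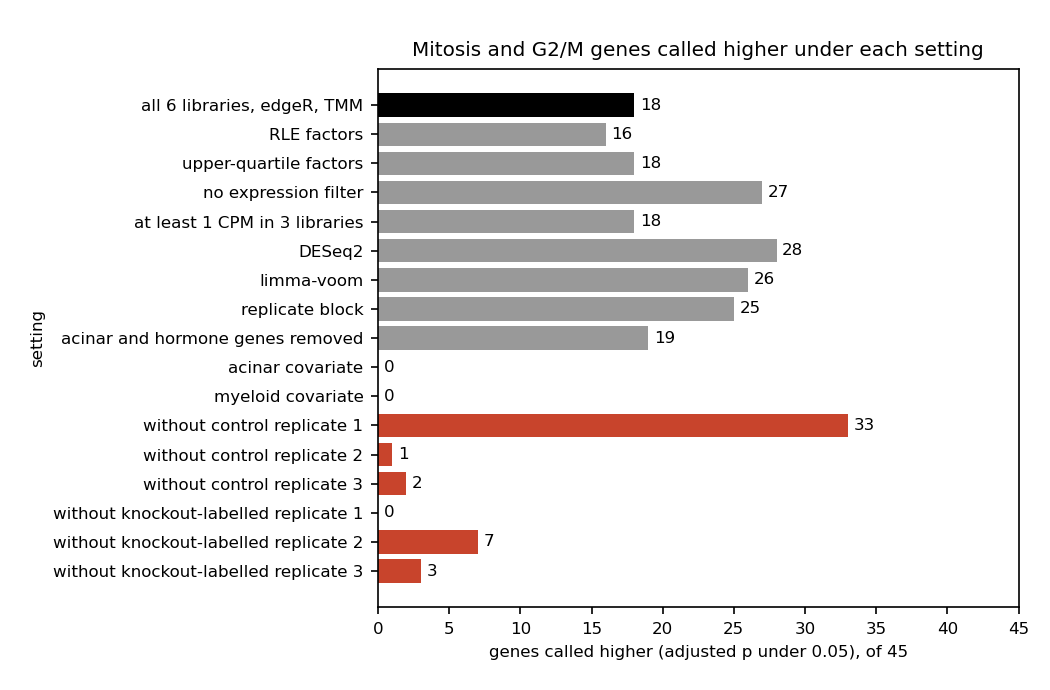
Number of the 45 genes called higher in knockout-labelled libraries (x axis) under each way of fitting the counts (y axis), with black for all 6 libraries in edgeR, gray for other settings and red for fits without 1 library. The count is 18 with all libraries and ranges from 0 to 33 when 1 library is left out.

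Genes next to these in the cell cycle were compared in the same fit. Of 65 other mitotic genes, 56 were tested, and 7 rose, 0 fell and 49 were not called, with a median log2 fold change of 1.22. The 4 with the smallest p were Ncapg2, a subunit of condensin II (1.42 ± 0.26), Nek2, a centrosomal kinase (2.46 ± 0.50), Ckap2l, a spindle protein (1.69 ± 0.36), and Shcbp1, a protein of the midbody (1.82 ± 0.44). Nek2 had 55, 12 and 16 counts in controls against 165, 113 and 146 in knockout-labelled islets. Of 36 tested DNA replication genes, 11 rose and 0 fell, with a lower median of 0.59. The smallest p among them belonged to Mcm5 (1.78 ± 0.22) and Mcm6 (0.79 ± 0.13), of the replicative helicase, and Rrm2 (1.60 ± 0.21) and Rrm1 (0.83 ± 0.13), of the enzyme that makes deoxyribonucleotides. Of 7 tested G1 cyclins and kinases, 0 were called by edgeR and 0 reached an unadjusted p under 0.05, with a median of 0.16. DESeq2 also called 0 of them. Cyclin D2 (Ccnd2), the most abundant of the list, had 15931, 13672 and 14838 counts against 12208, 12600 and 10116 (-0.20 ± 0.14, edgeR adjusted p = 0.387). The differences between these lists were not tested.

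Of 21 tested genes of the DREAM, MuvB and NF-Y regulators with E2F factors, p53 and p21, 1 rose and 0 fell, with a median of 0.05. An unadjusted edgeR p under 0.05 was reached by 6 of the 21, among them Rbl2 with a lower level. Among all tested genes, 3642 of 13736 reached it in either direction, a similar share. At least 2-fold higher were 4 of the 21, against 956 of 13736 tested genes. The gene that rose was Cdkn1a, which encodes p21, an inhibitor of cyclin-dependent kinases. It had 1047, 988 and 870 counts in controls against 4226, 2182 and 2381 in knockout-labelled islets (log2 fold change 1.72 ± 0.21, edgeR adjusted p = 0.0072). So the transcript of this cell cycle inhibitor was higher in the same libraries as the mitotic genes. Mybl2, the MYB factor of MuvB, was below the filter, with 4, 2 and 1 counts against 9, 25 and 11.

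Markers of other cell types moved with the labels too. Summed over 15 acinar markers, the controls held 11554, 10189 and 1070 CPM and the knockout-labelled libraries 27288 to 31652 CPM, while 0 of the 14 tested were called by edgeR and by DESeq2, 1 by limma-voom, and 12 had an unadjusted p under 0.05 in edgeR. Over 13 macrophage and myeloid markers the ranges were 175 to 183 CPM and 296 to 375 CPM, and 6 of 13 rose. Sums did not overlap between groups either for 11 endothelial markers (390 to 506 against 550 to 650 CPM), 10 stellate and fibroblast markers (87.2 to 323 against 346 to 439 CPM), 9 duct markers (472 to 562 against 610 to 836 CPM) or 7 Schwann cell markers (10.3 to 13 against 14.5 to 18.8 CPM). Of the tested markers, 4 of 11 endothelial, 3 of 10 stellate, 1 of 8 duct and 0 of 7 Schwann cell genes rose, and 0 of the Schwann cell genes had an unadjusted p under 0.05 or were called by DESeq2 or limma-voom. Markers of alpha, delta and PP cells, the other islet endocrine cells, summed to 47434 to 64314 CPM in controls and 68790 to 81187 CPM in knockout-labelled libraries, and 2 of 8 rose. Within these 7 lists no marker was at 0 in all libraries, whereas 5 of 8 erythroid markers were. The part of these cells in the higher mitotic transcripts was not tested. Lymphocyte markers overlapped between groups, from 11.1 to 19.6 CPM in the controls and at 9.77, 82.0 and 22.3 CPM in the knockout-labelled libraries. Of 10 tested lymphocyte markers, 1 rose, but all 10 had a log2 fold change above 0, with a median of 2.69. An unadjusted edgeR p under 0.05 was reached by 9 of the 10, against 14.9% of tested genes with a higher level. Every knockout-labelled library lay above every control for 3 of the 10, against 16.9% of tested genes. In controls 1, 2 and 3, Cd79a alone held 9.40, 16.3 and 9.26 CPM of the lymphocyte sum. For comparison with the counts of each list, 4.14% of all tested genes rose.

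With the mean acinar marker level as a covariate, edgeR called 0 of the 45 genes and 0% of all tested genes. At an unadjusted p under 0.05, 12 of the 45 were higher, and the median log2 fold change was 0.97. With the myeloid level as a covariate it also called 0 of 45 and 0% of all genes, with 30 of 45 higher at an unadjusted p under 0.05 and a median of 4.83. Both covariates separate the groups, with every knockout-labelled library above every control, so in either fit the group and the covariate cannot be told apart.

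**Figure D5:**
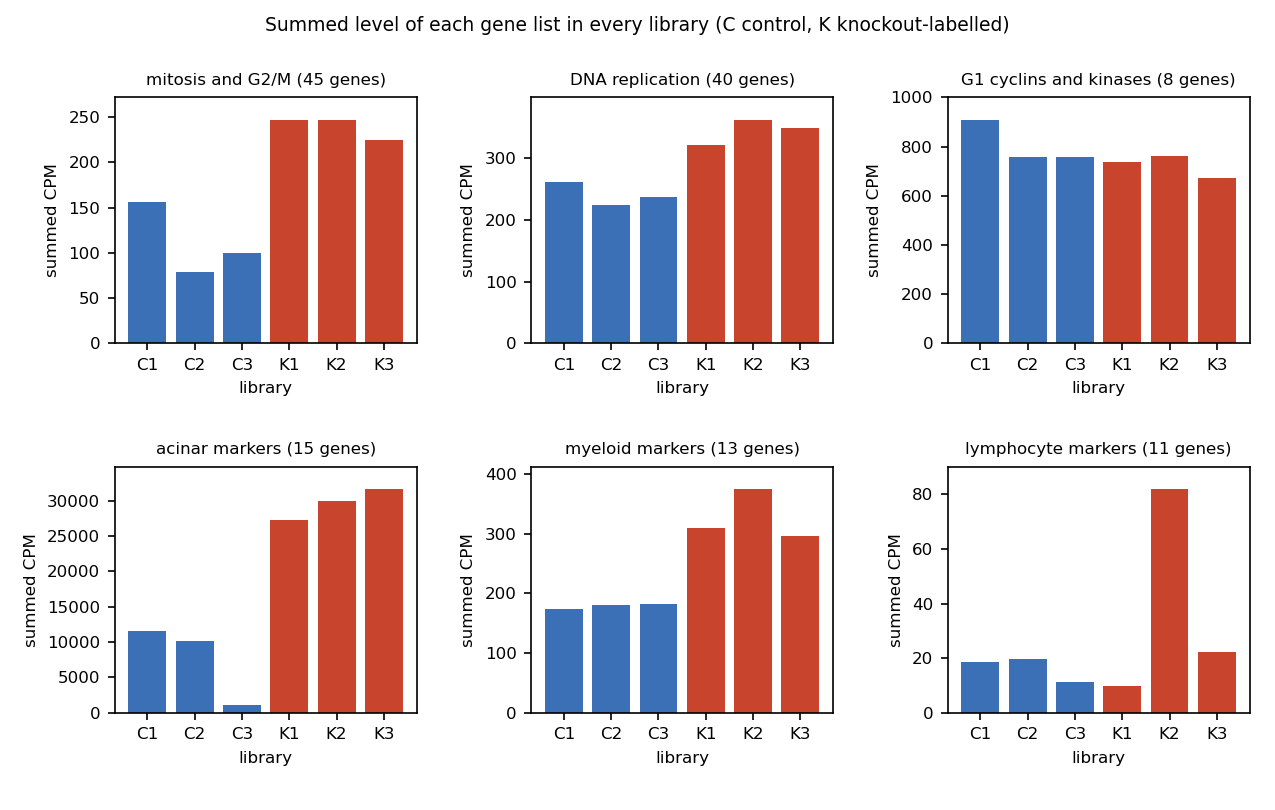
Summed CPM (y axes, each starting at 0) of 6 gene lists in each library (x axes), with blue bars for controls C1 to C3 and red bars for knockout-labelled libraries K1 to K3. Mitotic, replication, acinar and myeloid sums are higher in all 3 knockout-labelled libraries, G1 cyclin sums overlap, and the lymphocyte sum is high in K2 alone.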

How the data were processed

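Counts per gene were deposited by the authors as whole numbers, not normalized, with exon coordinates and summed exon length in another unit (bp), per the file headers. Per the labels' protocols, 10 ng of total RNA was copied with poly-dT priming and SMART-Seq v4 chemistry, sheared, and made into Ion Plus Fragment libraries. Poly-dT priming selects polyadenylated RNA, amplification adds noise to scarce transcripts, and no strand is recorded, so overlapping genes cannot be separated. Reads were handled with STAR 2.4.2a and featureCounts of Subread 1.5.0 on mm10, and edgeR is listed, per the submitters' processing notes. How multi-mapping reads were counted is not given in the sources used here.

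Counts were tested in R 4.3.3 with edgeR 4.0.16 (TMM factors, default filter by group, quasi-likelihood fit with group as the only term, threshold 0.05). Standard errors come from the fold change and the F value. CPM uses TMM-scaled library sizes. The members, lists and naming rule were chosen with earlier results of these data known. The rule named every called gene, up to 2 per role with full statistics, and a fixed set. Exon overlaps used GenomicRanges 1.54.1, ignoring strand. Alternatives used DESeq2 1.42.0, limma 3.58.1 (voom), other factors and filters, covariates and left-out libraries. Within groups, library pairs differed by more than counting noise (chi-square per degree of freedom 11.2 or more). On simulated data with 200 changed genes, 24% of 1.5-fold, 72% of 2-fold, 92% of 4-fold and 98% of 8-fold changes were recovered. For this comparison, 15 of 158 calls were false among 13607 genes. The recovery rates were not split by level. Of the mitotic genes, 35 lay in the lowest of 4 equal groups of tested genes by mean level. The rates therefore do not show how often changes in such scarce genes are recovered.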

Additional observations from a re-analysis of the deposited data

How the results depend on the processing

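Each of the 45 genes kept a positive log2 fold change in the fits tried with all libraries, except Cks2 (-0.012) and Kif2c (-0.48) with the acinar covariate. Leaving out 1 library moved Hmgb2 between -0.10 and 0.17, with -0.01 without control 2 and the lowest value without knockout-labelled replicate 2. RLE factors called 16 of 45 (4.06% of all tested genes higher), upper-quartile factors 18 (4.48%), no expression filter 27 (4.4%), at least 1 CPM in 3 libraries 18 (4.51%), limma-voom 26 (3.91%) and removal of acinar and hormone genes 19 (4.22%). DESeq2 called 28 of the 45, 18 other mitotic genes higher and 1 lower, and 3 regulators. Without a filter, 12 other mitotic genes were called higher and 1 lower. With the acinar or the myeloid covariate, 0 of the 45, 0 other mitotic genes, 0 replication genes and 0 regulators were called, and the median of the 45 was 0.97 and 4.83. Leaving out 1 library gave 0 to 33 of the 45 called higher, 0 to 18 other mitotic genes higher and 0 to 1 lower, 2 to 10 replication genes and 1 to 2 regulators higher. The cause of these changes was not tested. With the replicate number as a block, 25 of the 45 were called (3.92% of all tested genes), 17 of them shared with the fit without it, Mad2l1 was lost, and the median was 1.91. Same-numbered libraries did not deviate together (correlations -0.04, -0.01 and 0.05), so the numbers do not show a pairing. With about 17 to 94 counts for the median gene in a library, changes both under and over 2-fold can be missed. Nuf2 had a fold change of 5.25 and was not called (edgeR adjusted p = 0.0744).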
